A study of Mus musculus with 14 samples.

Results

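The 39 genes described here are interferon-stimulated genes with antiviral roles, such as Ifit1, Mx1, Oas3, Isg15 and Irf7. They were taken from a fixed list of symbols, and all 39 were found among the 21152 genes measured. The 14 RNA-seq libraries came from LLC1 tumours (Lewis lung carcinoma, a transplantable mouse line) whose hosts received treatment for 16 days. The groups were vehicle (DMSO, 4 libraries), MYCi975 at 50 mg/kg (4 libraries), TMP195 at 50 mg/kg (3 libraries), and both compounds together (3 libraries), with doses not stated in the labels. MYCi975 binds and inhibits MYC, a transcription factor that drives growth, whereas TMP195 blocks class IIa histone deacetylases. All groups share the LLC1 tumour and a bulk suspension of its cells, which the extraction protocol calls enriched for tumour. Mouse strain, sex and age were not stated. Whether libraries stem from separate mice was not stated either, so p-values measure the spread between libraries, which may be technical.

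Type I interferons are secreted when a cell senses viral or misplaced nucleic acid, and they act through the receptor chains IFNAR1 and IFNAR2. The receptor activates the kinases JAK1 and TYK2, and a complex that holds STAT2 and IRF9 then binds the interferon-stimulated response element in front of many genes. Their products block viral RNA and protein synthesis, add ISG15 to other proteins and shape feedback. In tumours both cancer cells and infiltrating leukocytes can express them, so a bulk sample mixes both sources. For this reason the genes were separated by whether they followed Ptprc, the gene of the leukocyte surface protein CD45.

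The response element found before many such genes is shown first, because it is the sequence that the complex with STAT2 and IRF9 reads. The letters GAAANNGAAA, the core of that element, were searched on both strands in the 250 bases before each RefSeq transcript start (build GRCm38.p6). RefSeq promoters were matched for 29 of the 39 genes, and 11 of the 29 (37.9%) held the letters, against 3.46% of 27025 genes overall. The shorter letters GAAANNGAA, contained in the first motif, were found in the same number of these genes, 11, and in 8.18% of all genes. Among the matched genes the motif stood before 9 of 24 that followed Ptprc and 2 of 5 that did not. Among the 11 with the letters, the 170 bases before the start are printed for 4 that followed Ptprc and for Rsad2, which did not. They run 5′ to 3′ on the gene's strand, with the motif or its reverse complement in capitals. Overlapping matches run together, as in the 3 matches before Isg15.
Isg15 (chr4:156200819-156200988, minus strand): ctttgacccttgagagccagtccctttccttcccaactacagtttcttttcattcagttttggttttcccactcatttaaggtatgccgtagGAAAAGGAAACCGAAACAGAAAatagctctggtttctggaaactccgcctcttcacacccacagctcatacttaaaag
Ifit1 (chr19:34640719-34640888, plus strand): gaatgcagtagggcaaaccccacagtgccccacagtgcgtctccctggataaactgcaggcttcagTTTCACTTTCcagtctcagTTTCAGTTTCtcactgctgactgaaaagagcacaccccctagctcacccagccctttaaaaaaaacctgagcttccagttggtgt
Oas3 (chr5:120777660-120777829, minus strand): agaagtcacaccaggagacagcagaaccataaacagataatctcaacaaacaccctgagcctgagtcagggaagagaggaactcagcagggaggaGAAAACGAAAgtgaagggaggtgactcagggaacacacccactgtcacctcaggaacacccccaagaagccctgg
Slfn5 (chr11:82951932-82952101, plus strand): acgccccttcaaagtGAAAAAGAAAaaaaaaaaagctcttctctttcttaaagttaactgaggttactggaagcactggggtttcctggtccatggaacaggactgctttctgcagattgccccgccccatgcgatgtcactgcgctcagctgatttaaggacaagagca
Rsad2 (chr12:26456453-26456622, minus strand): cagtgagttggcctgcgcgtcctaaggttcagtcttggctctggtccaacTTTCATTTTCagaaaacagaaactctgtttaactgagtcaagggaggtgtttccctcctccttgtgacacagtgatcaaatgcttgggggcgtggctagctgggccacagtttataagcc
A match is a description of the letters and does not show that a factor bound there, and the positions come from RefSeq, not from the deposited values.

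Values are expression on a log2 scale after a variance-stabilising transformation, with a floor of 4.05 that stands for no reads, and the depth of the libraries is unknown. Between 880 and 2954 genes per library sat at the floor, but none of the 39 genes was at the floor in any library, and all 39 passed the filter on low values. Leukocyte RNA was present in every library, with Ptprc between 9.65 in combination replicate 1 and 12.07 in MYCi975 replicate 2. Of the defining epithelial genes Krt8 and Krt18 lay between 7.84 and 8.88, while Epcam and Krt19 lay between the floor and 5.48. MYCi975 replicate 2 and combination replicate 1 stood apart from the other libraries, and the results that rest on them are given with and without them.

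The antiviral genes tended to be high or low together in the same libraries. Of the 39 genes 36 were highest in MYCi975 replicate 2, and 30 were lowest in combination replicate 1. With every gene expressed relative to its own 14-library mean, the mean of the 39 genes was 1.24 in MYCi975 replicate 2 and 0.40 in TMP195 replicate 3. It was -0.65 in combination replicate 1, -0.35 in replicate 2 and -0.32 in replicate 3. The other libraries lay between -0.30 in MYCi975 replicate 3 and 0.28 in vehicle replicate 3, so that the 3 combination libraries lay below all 11 others. Ptprc, centred in the same way, was also highest in MYCi975 replicate 2 (1.47) and TMP195 replicate 3 (0.84) and lowest in combination replicate 1 (-0.95). The median of the genes' SD over libraries was 0.52 log2 units, against 0.24 over all tested genes, and the median of their SD within groups was 0.47.

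**Figure D1:**
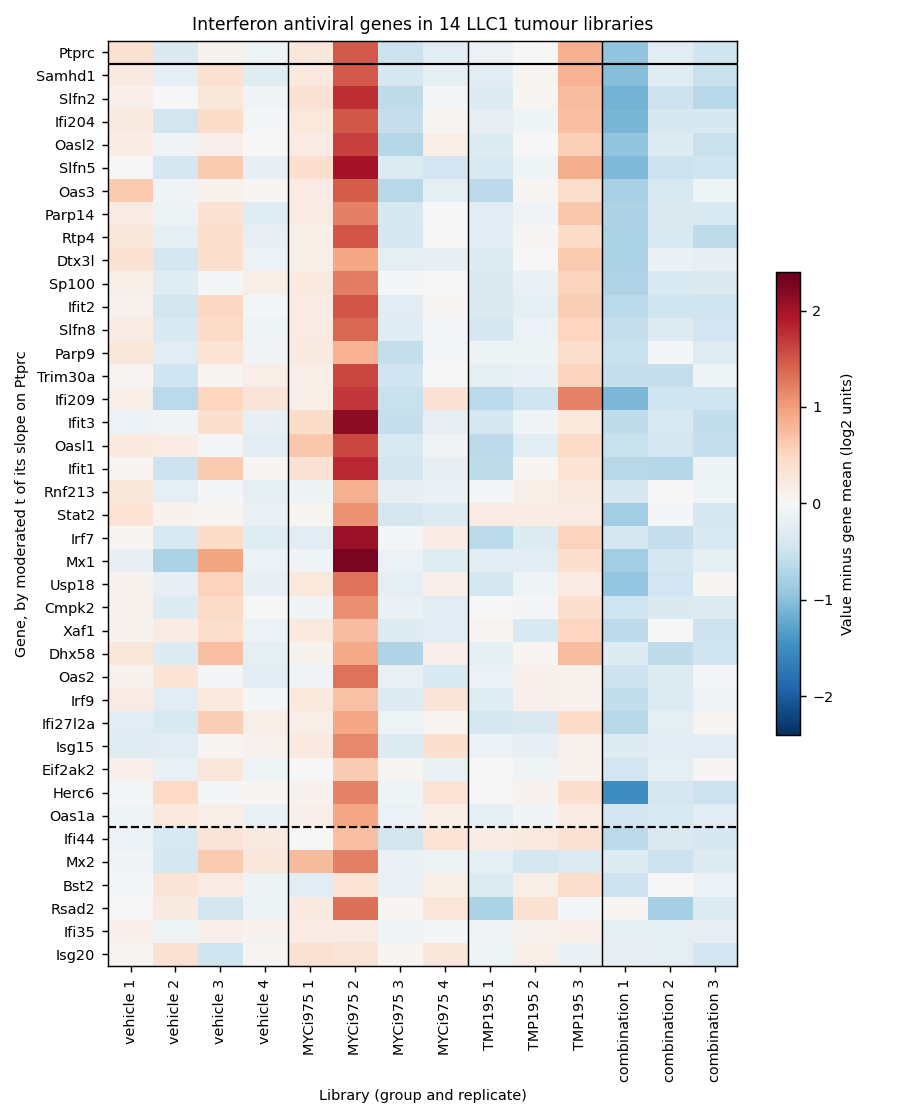
Heat map of the 39 antiviral genes and Ptprc (rows) in the 14 libraries (columns, grouped by treatment), as value minus gene mean in log2 units. The column of MYCi975 replicate 2 is the most red and the 3 combination columns are mostly blue, and the 6 genes under the dashed line are those whose slope on Ptprc did not pass the test.

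Most of the genes rose with Ptprc among libraries of the same group. A linear model with 1 mean per group and a slope on Ptprc was fitted with limma to all tested genes. The slope is the change in a gene, in log2 units, per log2 unit of Ptprc. For a gene well above the floor, a slope of 1 means about a doubling with each doubling of Ptprc. The slope was positive in 38 of the 39 genes and passed at an adjusted p of 0.05 or less in 33 of them, whereas 8.34% of all 13710 genes tested passed with a positive slope. No member passed with a negative slope (2.42% of all genes). At an unadjusted p under 0.05 there were 35 positive slopes (14.9% of all genes). The median slope was 0.68 over the 39 genes and -0.01 over all genes. For 17 of the 39 genes the 95% interval of the slope held 1, and for 22 it lay below 1. This scale understates differences near the floor, so in low genes a slope below 1 need not mean less than a doubling. With the mean of 12 other leukocyte markers in place of Ptprc, 34 of the 39 passed with a positive slope (8.04% of all genes). Among those 12 markers 11 rose with Ptprc itself, for example Laptm5 with a slope of 0.80, and 7 did without MYCi975 replicate 2. In bulk samples fewer leukocytes and less of these RNAs per cell cannot be told apart.

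How many genes passed depended on MYCi975 replicate 2, the library with the most Ptprc. Without it 14 of the 39 passed (2.22% of all genes), 19 no longer did, and none was added. The slope stayed positive in 37 of 39, with a median of 0.61. At an unadjusted p under 0.05 there were 25 without that library (8.47% of all genes with a positive slope). The 14 that passed with and without it were Ifit2, Oas3, Oasl2, Samhd1, Dtx3l, Parp9, Parp14, Slfn2, Slfn5, Slfn8, Ifi204, Ifi209, Rtp4 and Sp100.

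**Figure D2:**
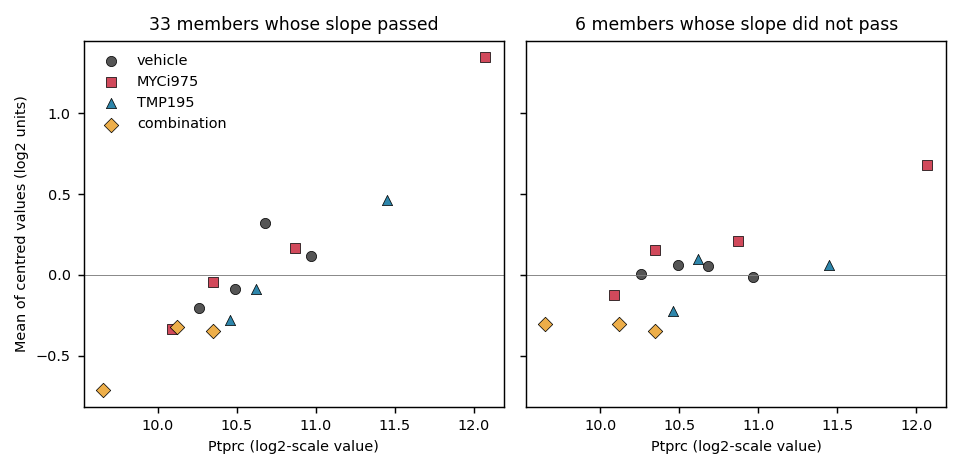
Mean of the centred values (vertical axis, log2 units) against Ptprc (horizontal axis, log2-scale value) in each of the 14 libraries, for the 33 genes whose slope passed and the 6 whose slope did not. In the first panel the points climb from combination replicate 1 (-0.71) to MYCi975 replicate 2 (1.35), and in the second the combination libraries lie at -0.31, -0.35 and -0.31, below the others.

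Among the effectors that act on viral RNA or proteins, 12 of 16 rose with Ptprc, and 4 of them also passed without MYCi975 replicate 2. The steadiest was Samhd1 (ENSMUSG00000027639.17), a phosphohydrolase that depletes the nucleotides needed by viruses. Samhd1 was 10.81, 10.38, 10.95 and 10.30 in the vehicle libraries, 10.83, 12.06, 10.20 and 10.38 with MYCi975, 10.31, 10.65 and 11.43 with TMP195, and 9.57, 10.30 and 10.05 with the combination. It was high in MYCi975 replicate 2 and TMP195 replicate 3, low in combination replicate 1, and the vehicle and combination libraries touched at 10.30. Its slope was 0.96 ± 0.09 (SE, limma adjusted p = 1.59e-05), and 0.95 without MYCi975 replicate 2 (adjusted p = 0.00257). Oasl2, a 2′-5′ oligoadenylate synthetase-like gene, had a slope of 0.96, and Oas3, a synthetase that activates RNase L, one of 0.98. Oas3 was highest in MYCi975 replicate 2 (8.46) and vehicle replicate 1 (7.64) and lowest in combination replicate 1 (6.23).

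The Ifit genes, whose products bind viral RNA and block its translation, had slopes of 0.98 (Ifit1), 0.85 (Ifit2) and 1.06 (Ifit3). Ifit1 was 8.28, 7.75, 8.86 and 8.26 with vehicle, 8.59, 10.05, 7.79 and 8.05 with MYCi975, 7.63, 8.29 and 8.56 with TMP195, and 7.57, 7.55 and 8.12 with the combination. The groups of Ifit1 overlapped, and MYCi975 replicate 2 stood above all other libraries. Without that library the slopes of Ifit1 (0.72, adjusted p = 0.169) and Ifit3 (0.60, adjusted p = 0.178) no longer passed, while that of Ifit2 did (0.73, adjusted p = 0.0336). Mx1, a dynamin-like GTPase that traps viral components, was 8.71 in MYCi975 replicate 2 and between 5.59 and 7.38 elsewhere. Its slope was 1.14, and 0.63 without that library (adjusted p = 0.41).

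Oas2, another synthetase of the family, had a slope of 0.60 that was 0.13 without MYCi975 replicate 2 (adjusted p = 0.851). The slope of Oas1a, 0.39, also depended on single libraries, passing in 5 of the 14 fits that left out 1 library. Eif2ak2, which encodes the kinase PKR, had a slope of 0.33 that passed in 9 of the 14. Cmpk2, a nucleotide kinase encoded beside Rsad2, had a slope of 0.61, and Oasl1, a relative of the synthetases that restrains Irf7 translation, one of 0.87. Neither passed without MYCi975 replicate 2, with slopes of 0.37 for Cmpk2 and 0.76 for Oasl1.

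All 5 genes of signalling and feedback rose with Ptprc over the 14 libraries, and none of the 5 passed without MYCi975 replicate 2. Irf7, the factor that amplifies interferon production, was 7.34, 6.93, 7.73 and 7.01 with vehicle, 7.03, 9.36, 7.25 and 7.47 with MYCi975, 6.65, 6.96 and 7.82 with TMP195, and 6.87, 6.73 and 6.92 with the combination. The 3 combination libraries lay just below the lowest vehicle library, and MYCi975 replicate 2 lay far above the rest. The slope of Irf7 was 0.96, and 0.49 without that library. Stat2 and Irf9, whose products belong to the complex that binds the response element, had slopes of 0.65 and 0.41. Dhx58, a relative of the RNA sensor RIG-I, had a slope of 0.68 over 14 libraries and 0.70 over 13 (adjusted p = 0.247). Usp18, which removes ISG15 and dampens the receptor, had slopes of 0.70 and 0.61.

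All 7 genes of ubiquitin-like, ubiquitin and ADP-ribosylation enzymes rose with Ptprc, and 3 of them also passed without MYCi975 replicate 2. Dtx3l, an E3 ligase, and Parp9, its ADP-ribosyltransferase partner, had slopes of 0.73 and 0.65, and 0.86 and 0.73 without MYCi975 replicate 2. Parp14, a further ADP-ribosyltransferase, had a slope of 0.77. Parp14 ran from 9.08 in combination replicate 1 to 11.04 in MYCi975 replicate 2, and its combination libraries (9.08 to 9.47) lay below those of vehicle (9.53 to 10.17) and TMP195 (9.57 to 10.47). Isg15, the ubiquitin-like modifier itself, was 5.47, 5.51, 5.79 and 5.86 with vehicle, 5.98, 6.91, 5.43 and 6.14 with MYCi975, 5.62, 5.56 and 5.86 with TMP195, and 5.45, 5.50 and 5.50 with the combination. The vehicle and combination values of Isg15 overlapped, and 3 of 4 MYCi975 libraries lay above all others. Its slope was 0.48, and 0.23 without MYCi975 replicate 2 (adjusted p = 0.684). Trim30a and Rnf213, both E3 ligases, had slopes of 0.88 and 0.52, and neither passed without MYCi975 replicate 2. Herc6, the ligase that attaches ISG15 in mice, had a slope of 0.53 that passed in 8 of 14 fits leaving out 1 library.

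Of the 11 Schlafen, Ifi200 and other induced genes 9 rose with Ptprc, and 7 of them also without MYCi975 replicate 2. The Schlafen genes, restraints on growth and translation that leukocytes express, had slopes of 1.03 (Slfn2), 1.19 (Slfn5) and 0.81 (Slfn8). Slfn5 was 8.50, 8.09, 9.11 and 8.29 with vehicle, 8.89, 10.48, 8.16 and 8.04 with MYCi975, 8.12, 8.40 and 9.37 with TMP195, and 7.43, 7.98 and 8.02 with the combination. All 3 combination libraries lay below all 11 others. The slopes of Ifi204 and Ifi209, of the family of nuclear DNA-binding proteins to which DNA sensors belong, were 0.98 and 1.14. Rtp4, a chaperone that restrains RNA viruses, and Sp100, a nuclear body protein, had slopes of 0.85 and 0.68. The slopes of Xaf1, a binder of the apoptosis inhibitor XIAP, and Ifi27l2a were 0.55 and 0.57, and neither passed without MYCi975 replicate 2. Genes of the Ifi200, Schlafen, Oas and Ifit families have close copies, so reads shared between copies may be split in the authors' quantification.

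**Figure D3:**
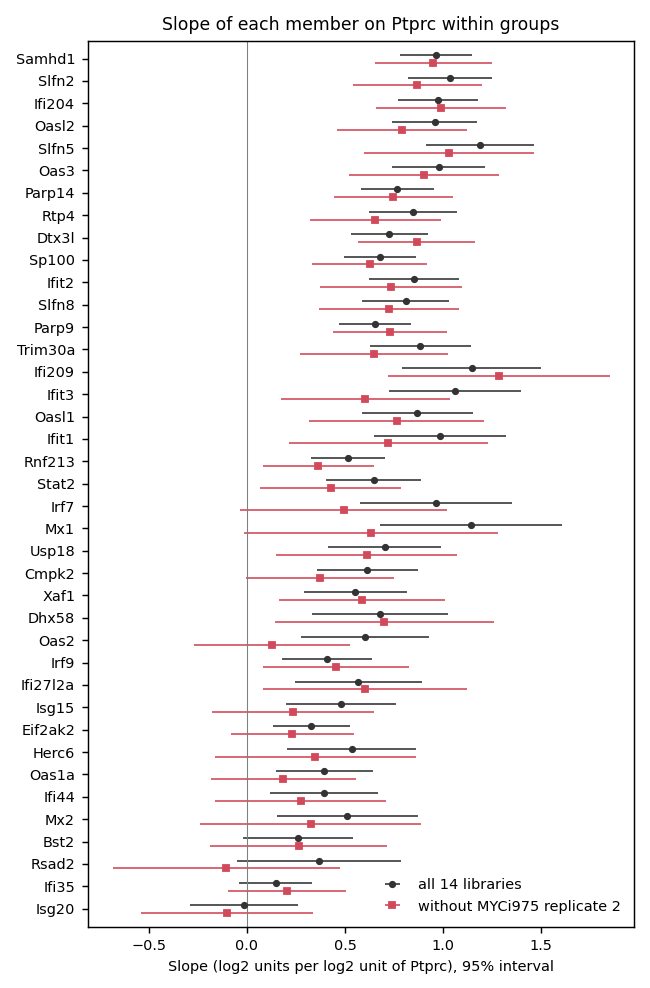
Slope of each of the 39 genes on Ptprc within groups, in log2 units per log2 unit of Ptprc, with 95% intervals, for all 14 libraries (black circles) and without MYCi975 replicate 2 (red squares). Slopes run from 1.19 for Slfn5 to -0.01 for Isg20, and the intervals widen without that library.

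The 6 genes that did not pass were Isg20, Rsad2, Bst2, Ifi35, Mx2 and Ifi44. Isg20, an exonuclease that degrades viral RNA, had a slope of -0.01 ± 0.13 (SE, limma adjusted p = 0.962). Isg20 (ENSMUSG00000039236.19) was 6.85, 7.17, 6.32 and 6.82 with vehicle, 7.17, 7.10, 6.85 and 7.08 with MYCi975, 6.68, 6.95 and 6.64 with TMP195, and 6.60, 6.58 and 6.33 with the combination. Its combination libraries lay below those of MYCi975 and TMP195 and overlapped those of vehicle through vehicle replicate 3.

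Rsad2, which encodes viperin, an enzyme that makes a chain-terminating nucleotide, had a slope of 0.37 (adjusted p = 0.269) and one of -0.11 without MYCi975 replicate 2. Rsad2 was 8.34, 8.57, 7.91 and 8.22 with vehicle, 8.56, 9.67, 8.40 and 8.64 with MYCi975, 7.59, 8.72 and 8.31 with TMP195, and 8.37, 7.54 and 8.03 with the combination. It was high in MYCi975 replicate 2 and low in TMP195 replicate 1 and combination replicate 2, whose Ptprc was 10.46 and 10.35. The slope of the neighbouring Cmpk2, 0.61, passed over the 14 libraries, and the difference between both slopes was not tested.

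Bst2, which encodes tetherin, a protein that holds virions at the cell surface, had a slope of 0.26 (adjusted p = 0.237). Ifi35, a partner in protein complexes of the response, varied least of the 39 genes, between 6.40 and 6.82 (SD 0.15 over 14 libraries), and had a slope of 0.15 (adjusted p = 0.331). Mx2 and Ifi44 missed the threshold narrowly, with slopes of 0.51 (adjusted p = 0.0671) and 0.39 (adjusted p = 0.0663), where Oas1a just passed with 0.39 (adjusted p = 0.0412). Each of these 2 passed in 2 of the 14 fits that left out 1 library. With the other leukocyte markers in place of Ptprc, Mx2 and Ifi44 both passed (limma adjusted p = 0.0399 and 0.0474). Herc6, which followed Ptprc, did not pass there (adjusted p = 0.0744). Over the 6 genes the median slope was 0.31. Not passing does not show that these genes come from tumour cells or are free of leukocyte RNA.

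Against vehicle, none of the 39 genes passed with MYCi975 (0% of all genes passed; smallest adjusted p of the 39 0.999). None had an unadjusted p under 0.05 (3.33% of all genes). The mean was higher in 36 of the 39, with a median difference of 0.26, and 48.3% of all genes were lower. This direction rested on 1 library: without MYCi975 replicate 2 the median was -0.09 and 30 of the 39 were lower, against 1 to 7 without each other library. The smallest p values belonged to Isg15 (0.46, 95% interval -0.04 to 0.95), Rsad2 (0.55, -0.05 to 1.16) and Isg20 (0.26, -0.10 to 0.62). With Ptprc in the model the median difference was 0.05, 10 of the 39 were lower (48.7% of all genes), and none had an unadjusted p under 0.05 (3.58% of all genes). The count of lower genes was 23 without vehicle replicate 1, 17 without MYCi975 replicate 4 and 16 without MYCi975 replicate 2, and 7 to 15 without each other library. In no gene of the 39 did all MYCi975 libraries lie below all vehicle libraries (0.707% of all genes).

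With TMP195 none of the 39 genes passed against vehicle (0% of all genes), and none had an unadjusted p under 0.05 (2.78% of all genes). The median difference was -0.0084, with 22 of the 39 lower (49.2% of all genes). In none of the 39 did the TMP195 libraries all lie below those of vehicle (1.87% of all genes). The median was 0.14 without TMP195 replicate 1 and -0.20 without TMP195 replicate 3, the library of this group with the most Ptprc (11.45). The count of lower genes was 4 and 35 without these libraries and 8 without vehicle replicate 3. With Ptprc in the model 37 of 39 were lower (50.2% of all genes), by a median of -0.15, and the count ran from 32 to 38 when each library was left out. Ptprc itself was 0.24 higher with TMP195 than with vehicle, which in that model lowers the difference of every gene with a positive slope. The 39 genes vary together, so this count does not stand for 39 separate observations. None passed over all genes in that model (0%), and 2 had an unadjusted p under 0.05 (3.79% of all genes). These were Oas3, at -0.46 (95% interval -0.80 to -0.12), and Mx2, at -0.56 (-1.07 to -0.04). Without Ptprc in the model their differences were -0.22 and -0.43.

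With the combination, all 39 genes had a lower mean than with vehicle, by a median of -0.49, and none passed limma's test over all genes (0% of all genes; smallest adjusted p of the 39 0.992). The median over all tested genes was -0.0022, with 50.3% lower. In 15 of the 39 genes all combination libraries lay below all vehicle libraries, as they did in 3.27% of all genes. Without combination replicate 1 there were 16 such genes (4.91% of all genes). Leaving out a library can only keep or raise such a count, so it could not have fallen. Because the 39 genes vary together, they are not 39 separate observations. Ptprc was lower by -0.56 in this comparison (95% interval -1.35 to 0.23), and the mean of the 12 other leukocyte markers ran from -0.72 to -0.29 with the combination and from -0.33 to 0.30 with vehicle.

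At an unadjusted p under 0.05 there was 1 of the 39 genes, Herc6 (3.43% of all genes). Without MYCi975 replicate 2, a library outside these groups that acts on the estimate of the spread, there were 18 (5.29% of all genes), and without combination replicate 1 there were 0 (1.71%). Herc6 (ENSMUSG00000029798.12) was 8.34, 8.88, 8.37 and 8.43 with vehicle, 8.47, 9.58, 8.29 and 8.71 with MYCi975, 8.39, 8.48 and 8.79 with TMP195, and 6.90, 7.99 and 7.88 with the combination. All combination libraries of Herc6 lay below all others, and combination replicate 1 was the lowest. Its difference from vehicle was -0.92 (95% interval -1.54 to -0.30, unadjusted p = 0.00655 by limma). Slfn2 followed at -0.84 (-1.69 to 0.0098) and Ifi35 at -0.27 (-0.55 to 0.02).

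With Ptprc in the model the combination differed less from vehicle. There 28 of the 39 genes were lower (49.8% of all genes) with a median of -0.09, and the count ran from 20 to 34 when each library was left out. Over the 33 genes that followed Ptprc the median went from -0.51 to -0.08, and over the 6 others from -0.29 to -0.19. Both classes were set by the slope in this same model, so a larger move over the 33 genes was built into the split. Herc6 had the smallest p, with a difference of -0.62 (95% interval -1.11 to -0.12), the 1 gene of 39 at an unadjusted p under 0.05 (3.58% of all genes), and none of the 39 passed over all genes (0%). For Isg20 the difference was -0.28 without and -0.29 with Ptprc in the model (interval -0.71 to 0.12). Rnf213 (0.18) and Mx1 (0.19) lay on the other side of 0. Since the slope and the group difference come from the same model, the smaller medians describe that model, and a change of the genes within leukocytes was not tested.

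**Figure D4:**
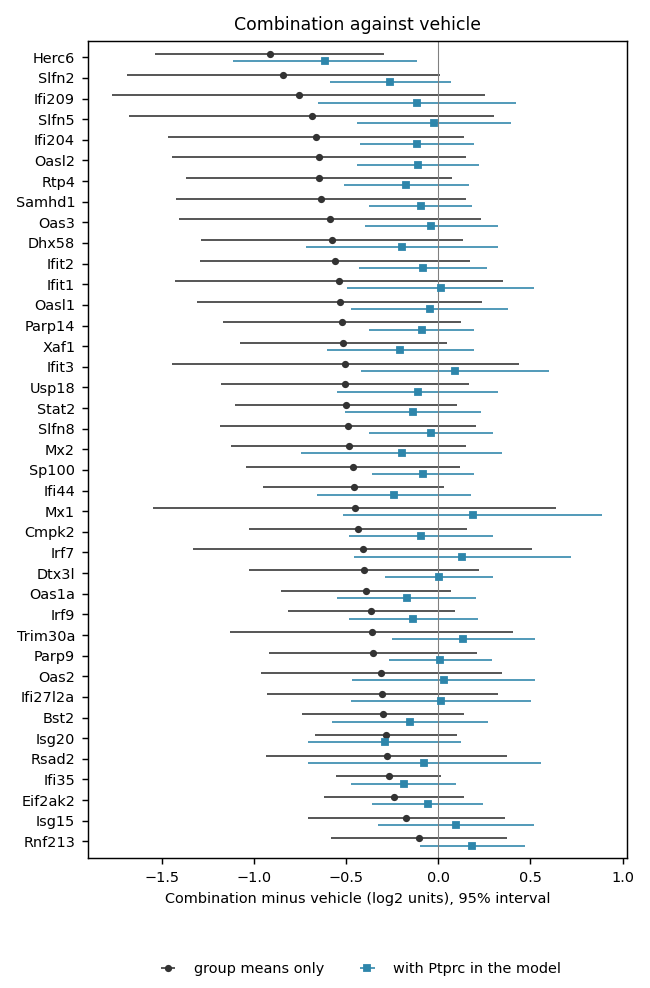
Difference between the combination and vehicle for each of the 39 genes, in log2 units with 95% intervals, from group means only (black circles) and with Ptprc in the model (blue squares). All black points lie below 0, from -0.92 for Herc6 to -0.11 for Rnf213, and the blue points lie nearer to 0 with 28 of 39 below it.

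The combination was also lower than each single agent in all 39 genes, by a median of -0.75 against MYCi975 and -0.44 against TMP195, where 49.8% and 48.9% of all genes were lower. The comparisons share the combination libraries, so they are not independent of each other or of the comparison with vehicle. None of the 39 passed against MYCi975 (0% of all genes), and 23 had an unadjusted p under 0.05 (8.17% of all genes). Without MYCi975 replicate 2 there were 6 (4.38%), with a median of -0.41, and without combination replicate 1 there were 7 (3.55%). Against TMP195 none passed (0%), and 3 had an unadjusted p under 0.05 (4.4% of all genes), namely Herc6 (-0.96), Ifi44 (-0.71) and Slfn2 (-0.92). That count was 14 without MYCi975 replicate 2 (7.1%) and 1 without combination replicate 1 (1.85%), and the median was -0.22 without TMP195 replicate 3. Ptprc itself was lower by -0.81 against MYCi975 and by -0.80 against TMP195. Of the 12 other leukocyte markers 6 had an unadjusted p under 0.05 against MYCi975 and 4 against TMP195, by limma.

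Groups did not overlap in 13 of 39 genes against MYCi975 (3.97% of all genes) and in 16 against TMP195 (6.36%). In Cmpk2, Herc6, Ifi35, Ifit2, Oas1a and Slfn5, 6 genes singled out after their values were seen, the combination libraries lay below those of all 3 other groups. The share of all genes that met this condition was not counted, so whether 6 of 39 is unusual is not known. The margin was narrow in Ifit2, which was 8.14, 8.33 and 8.32 with the combination and 8.36 or more in every other library. With Ptprc in the model the median difference was -0.13 against MYCi975 and 0.08 against TMP195, with 34 and 11 genes lower (50.4% and 50.1% of all genes). These were 35 and 17 without MYCi975 replicate 2. An unadjusted p under 0.05 was then found for 2 genes against MYCi975 (2.67% of all genes), Herc6 (-0.74) and Isg20 (-0.56), and for 1 against TMP195 (2.84%), Oas3 (0.42).

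The interaction asks whether the effect of MYCi975 differed in the presence of TMP195. It does so only if the combination used the doses of the single agents, which the labels do not state. The interaction was below 0 in all 39 genes, with a median of -0.70. None passed (0% of all genes), and 4 had an unadjusted p under 0.05 (4.78% of all genes), led by Herc6 (-1.22, 95% interval -2.09 to -0.34), Ifi44 (-0.85) and Sp100 (-0.85). Without MYCi975 replicate 2 the median was -0.35, with 2 genes at an unadjusted p under 0.05 (3.4% of all genes). With Ptprc in the model the median was 0.05 and 12 of 39 genes were below 0. That count was 22 without vehicle replicate 3, 20 without MYCi975 replicate 1, 19 without MYCi975 replicate 2 and 7 without vehicle replicate 1. There 1 of the 39 had an unadjusted p under 0.05 (1.87% of all genes), Oas3 at 0.64 (0.10 to 1.17), on the other side of 0 from Herc6 (-0.66) and Isg20 (-0.53). Below 0 lay 49.8% of all genes without Ptprc in the model and 51.2% with it. The interaction of Ptprc itself was -1.05.

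Further parts of the interferon pathway were described from lists. Of 20 ligand genes listed, Ifnz was measured and lay between the floor and 4.75, below the filter. None of the other ligands was found by symbol among the genes measured. Of 5 tested receptor genes 4 rose with Ptprc, namely Il10rb (slope 0.63), Ifngr1 (0.45), Ifnar1 (0.36) and Ifnar2 (0.30). The count was 2 of 5 without MYCi975 replicate 2. The slope of Ifnar1 did not pass without MYCi975 replicate 2 (0.24, adjusted p = 0.416), while that of Ifnar2 did (0.53, adjusted p = 0.0429). Ifnar2 ran from 8.57 to 8.80 with the combination and from 8.76 to 9.13 with vehicle, with a difference of -0.34 (95% interval -0.71 to 0.03).

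Of 13 sensors and adaptors 7 rose with Ptprc, led by Trim25, an E3 ligase that acts on RIG-I (0.55), Ifih1, which encodes the RNA sensor MDA5 (0.995), and Ddx58, which encodes RIG-I (0.53). None of the 13 passed without MYCi975 replicate 2. The adaptors Mavs (0.04) and Tmem173, which encodes STING (0.12), had slopes that did not pass. Of 9 kinases and factors that induce interferon 3 rose with Ptprc, Irf5 (0.68), Irf8 (0.57) and Tbk1 (0.29). Of 8 negative regulators 3 did, Ptpn6 (0.996), Trex1 (0.55) and Socs3 (0.47). Without MYCi975 replicate 2 there was 1 of the 9, Irf8 (0.79), and 0 of the 8.

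Genes of the interferon gamma response followed Ptprc in 18 of 19 tested genes, and in 17 without MYCi975 replicate 2, where 14 of the 39 antiviral genes did. Gbp5, an interferon-induced GTPase, had slopes of 1.31 and 1.61. Their median difference with the combination was -0.60, with 19 of 19 lower, and none passed the test (0% of all genes). Cxcl10, a chemokine induced by both interferon types, was 7.20, 8.17 and 7.56 with the combination and 7.76 to 8.77 with vehicle, and these ranges overlapped. Ifng itself was 4.48, 5.19 and 4.43 with the combination and 4.83 to 5.80 with vehicle. No gene of any of these lists passed in a comparison between groups.

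Markers of other cells moved with Ptprc to different degrees. Of the macrophage and monocyte markers 9 of 12 rose with it, of T cell markers 4 of 8, of NK cell markers 2 of 3 tested, and of neutrophil markers 2 of 7 tested. These counts were 3 of 12, 2 of 8, 1 of 3 and 0 of 7 without MYCi975 replicate 2. Over all genes 8.34% passed with a positive slope with that library and 2.22% without it. Without it the slopes were still positive in 12 of 12, 7 of 8, 3 of 3 and 3 of 7. An unadjusted p under 0.05 by limma, in either direction, was then found for 11, 5, 2 and 0 of them. Of all genes 8.47% reached that with a positive slope. Plasmacytoid dendritic cells are known as strong producers of type I interferon. Their marker Siglech lay near the floor, between 4.93 and 5.67, where differences are understated. The slope of Siglech, 0.25, did not pass (limma adjusted p = 0.189). Of 4 tested markers of these cells 1 rose with Ptprc, Lair1, which other leukocytes also express. Slopes were positive in 3 of the 4. An unadjusted p under 0.05 by limma, in either direction, was found for 3, and for 1 without MYCi975 replicate 2. Of all genes 14.9% and 8.47% reached that with a positive slope. No endothelial or epithelial marker passed, and of 8 fibroblast markers 1, Lum, fell with Ptprc (slope -1.03). The slope of Lum was -0.81 without MYCi975 replicate 2 and did not pass (adjusted p = 0.0851). Which cells carried the antiviral RNAs was not tested.

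Some shared variation remained once group means and Ptprc were taken out. The mean correlation between pairs of the 39 genes, over 14 libraries after group means were removed, was 0.72, and it was 0.22 once Ptprc was also removed (0.19 without MYCi975 replicate 2). Over all tested genes both means were near 0 (0.00064 and 0.00077). For the 6 genes that did not pass, the mean was 0.26 before and 0.03 after. These 6 were set apart by their slope in the same libraries, so a low mean before was partly built into the split. In what remained the mean of the 39 genes was highest in vehicle replicate 3 (0.19) and lowest in vehicle replicate 1 (-0.20). These 2 libraries had Ptprc of 10.68 and 10.97, so the one with less Ptprc had more of these RNAs. The pattern is visible in Mx1, at 7.38 in vehicle replicate 3 and 6.23 in replicate 1, and in Ifit1 (8.86 and 8.28), whereas Oas3 went the other way (7.11 and 7.64). The mean of 3 tested skeletal muscle markers, relative to their means, was also highest in vehicle replicate 3 (2.80), followed by MYCi975 replicate 2 (2.25), and lowest in combination replicate 3 (-1.97). Its part in these values was not tested. Unlike Ptprc, the mean of the 12 other leukocyte markers was higher in vehicle replicate 3 (0.30) than in vehicle replicate 1 (0.17). That of macrophage and monocyte markers was 0.41 and 0.12, and NK cell and plasmacytoid dendritic cell markers also went that way. Markers of T cells (0.01 and 0.32), neutrophils (-0.60 and 0.03), B cells and conventional dendritic cells went the other way.

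Outside the lists, the genes whose values were most like the mean of the 39, by Pearson's r over 14 libraries after group means were removed, were Mndal, Spn, Dock8, Ptafr and Themis2, with r between 0.978 and 0.981. Ptprc itself had r = 0.96. Mndal belongs to the same Ifi200 family as Ifi204 and Ifi209, so it may share reads with them. Spn, which encodes the leukocyte surface protein CD43, Dock8, Ptafr and Themis2 are known as genes of leukocytes. All genes were read in the same 14 libraries, so they share whatever sets those apart, and r is given as a measure of likeness.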

How the data were processed

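The authors deposited 1 table of log2-scale values from a variance-stabilising transformation (so named by the deposited file), with 21152 mouse Ensembl gene IDs and 14 libraries. Per the submitters' processing notes Salmon was used, with no version, and the build named is hg38, a human one, so which build gave these mouse values is unclear. Library scaling and filters were not stated. Of the IDs 20264 matched a mouse symbol and 888 did not.

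Genes with a mean over 1 log2 unit above the floor were tested (13711). Models were fitted with limma 3.58.1 in R 4.3.3 to all 14 libraries, with 1 mean per group, moderation along an intensity trend and Benjamini-Hochberg adjustment over all tested genes at 0.05, two-sided. There were 10 residual degrees of freedom (9 with Ptprc as a covariate). A gene followed Ptprc when its slope was positive and passed. The scripts were tested on simulated data. The 39 genes, the lists and the tests were chosen with earlier results of these data known. Named were all 39 genes, up to 3 genes of each other list by smallest p, Ptprc, Ifnar1, Ifnar2, Ifng and Cxcl10, and the 5 most alike genes. Results for some genes covered by this rule are not reported here. Mavs, Tmem173, Siglech and the epithelial genes were named after their values were seen, as were the genes chosen for values in every library.

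The labels share replicate numbers across groups. Same-numbered libraries of vehicle and TMP195 deviated together in all 3 pairs (r = 0.11, 0.17 and 0.21), while over all pairs of groups 6 of 19 pairs had r above 0.1 and the lowest was -0.30. The main model has no replicate block, and the alternatives include it.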

Additional observations from a re-analysis of the deposited data

Results flagged for a closer look

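In groups of 4 libraries, 82 sets of values were screened for 1 library far from the other 3, measured as its gap to the nearest divided by the range of the group, with a critical value of 0.829. Chance alone marks about 1 set in 20, and 6 were marked here. With MYCi975, replicate 2 stood far above the others for Mx1 (gap share 0.924, 8.71 against 6.33 in the next library), Rnf213 (0.924, 12.38 against 11.40), Cmpk2 (0.847, 7.29 against 6.12) and Oas2 (0.834, 7.83 against 6.43). With vehicle, replicate 2 stood below the others for Trim30a (0.872, 7.85 against 8.41) and Ifi35 (0.864, 6.51 against 6.71). Ptprc was 12.07 in MYCi975 replicate 2 and 10.26 in vehicle replicate 2, the highest of all libraries and the lowest of the vehicle libraries. Its part in these values was not tested.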

How the results depend on the processing

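No member passed between groups under any of the alternatives run, with or without Ptprc in the model. These were no filter, a stricter filter, moderation without a trend or robust, median centring, quantile normalisation, only the groups compared, the replicate block, the other leukocyte markers as a covariate, and each library left out. The number of members that followed Ptprc was 33 (8.34% of all genes), 30 with the replicate block and 27 with quantile normalisation. It ran from 14 without MYCi975 replicate 2 (2.22% of all genes) to 35 without vehicle replicate 1 when 1 library was left out. Beside the 30, 27 and 35 the share over all genes was not counted, so how genes in general changed there is not known. Median differences ran, with 1 library left out, from -0.56 to -0.36 for the combination against vehicle, -0.96 to -0.41 against MYCi975, -0.61 to -0.22 against TMP195 and -0.91 to -0.35 for the interaction. With the replicate block they were -0.57, -0.84, -0.44 and -0.70, and for TMP195 against vehicle -0.04, and the block changed no call between groups. With Ptprc as a covariate the medians moved to -0.13 (combination against MYCi975), 0.0836 (against TMP195) and 0.0492 (interaction), and with the other leukocyte markers to -0.00789 (against vehicle), -0.0324, 0.12 and 0.13. Without MYCi975 replicate 2 or combination replicate 1, chosen after seeing the data, members with an unadjusted p under 0.05 were 18 and 0 (against vehicle), 6 and 7 (against MYCi975), 14 and 1 (against TMP195) and 2 and 2 (interaction). With 1 library left out the slope of Isg20 ran from -0.1003 to 0.03802, above 0 in 5 of 14 fits, and that of Rsad2 from -0.1059 to 0.4636, below 0 without MYCi975 replicate 2. Without group means the slope of Isg20 was 0.14. The causes were not tested. Depth is unknown, and differences of genes near the floor are understated on this scale.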
